A study of Mus musculus with 9 samples.

Results

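The miR-7 family of the mouse comes from 3 hairpins, Mir7-1, Mir7-2 and Mir7b, and its reads were followed here through 9 small RNA-seq libraries. Members were taken by position alone, as every 5′ end on these hairpins in the deposited alignments, and reads that Mir7-1 and Mir7-2 share were merged under miR-7a. A 5′ end is the genomic base at which reads start. Of 2954421 5′ ends with a read in any library, 1093 reached 100 RPMM, that is 100 of every 1e+06 mapped reads, in at least 1 MIN6 library and 743 did so in at least 1 liver library, and the family held 11 and 1 of these. Within 5 nt of the start of an annotated arm, 20 family 5′ ends reached 10 RPMM in at least 1 library.

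The study compared protocols that join adapters to small RNAs before sequencing. MIN6 is a line of insulin-secreting cells from an insulinoma of a mouse transgenic for the large T antigen, grown here in medium with 25 mM glucose, and its RNA went into 3 Illumina TruSeq libraries (TS-GAIIx), 3 Illumina v1.5 libraries (v1.5-GAIIx) and 1 NEXTflex V2 library (NF-HiSeq), the last of which used adapters with random bases at the ligation boundary. Liver RNA of a single saline-injected, overnight-fasted female C57BL/6J mouse, bought at 9 weeks of age, went into 1 TruSeq (TS-HiSeq-ML) and 1 NEXTflex (NF-HiSeq-ML) library. TS-GAIIx and v1.5-GAIIx shared platform, facility and date, whereas NF-HiSeq differed from them in RNA, platform, facility and date as well as in protocol, and these cannot be told apart.

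miRNAs are cut from hairpins as a duplex of 2 arms, 5p and 3p, of which usually only 1 is kept by Argonaute proteins. The seed, bases 2 to 8 of the kept arm, pairs with target mRNAs, so that a shift of the start replaces the seed. miR-7 is a conserved animal miRNA found mostly in neurons and endocrine cells, where it is one of the abundant miRNAs of pancreatic islets and restrains insulin secretion and beta-cell proliferation, and in brain it is bound by the circular RNA Cdr1as.

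The mature sequences of RefSeq (GRCm38.p6) show what the libraries could tell apart. In the mature 5p and 3p arms printed here the seed is in capitals.
miR-7a-5p, from Mir7-1 and from Mir7-2: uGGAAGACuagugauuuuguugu
miR-7b-5p, from Mir7b: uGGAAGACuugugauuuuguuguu
miR-7a-1-3p, from Mir7-1: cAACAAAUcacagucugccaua
miR-7a-2-3p, from Mir7-2: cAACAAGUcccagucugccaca
miR-7b-3p, from Mir7b: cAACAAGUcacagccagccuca
The 5p arms share the seed GGAAGAC, and miR-7a-5p differs from miR-7b-5p by A10U alone over the bases both have, counted from 1 at the 5′ end. The 3p arms carry 2 seeds, since miR-7a-1-3p differs from miR-7a-2-3p by A7G, A10C and U21C. A 3p read therefore names its hairpin, while a miR-7a-5p read from the reference start does not until it runs past base 24. The first 28 bases of each hairpin from the 5p start show this, with bases 25 to 28 in capitals.
Mir7-1: uggaagacuagugauuuuguuguuUUUA
Mir7-2: uggaagacuagugauuuuguuguuGUGU
Mir7b: uggaagacuugugauuuuguuguuCUGA
In GRCm38 Mir7-1 (chromosome 13, 58392779 to 58392886, minus strand) lay in an intron of Hnrnpk, an RNA-binding protein gene on the same strand, and overlapped none of its exons. Mir7-2 (chromosome 7, 78888277 to 78888373, plus strand) and Mir7b (chromosome 17, 56242988 to 56243098, plus strand) overlapped no other annotated gene. The deposited positions are in mm9 and were not converted.

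The deposited counts summed to between 6.92e+06 and 2.56e+07 per library, and 3 reads, the limit that a count of 0 allows, corresponded to between 0.117 and 0.452 RPMM. The libraries matched their labels by defining miRNAs. miR-375-3p, an islet miRNA, was at 64950 RPMM or more in the 7 MIN6 libraries and at 40.0 and 26.7 RPMM in TS-HiSeq-ML and NF-HiSeq-ML, and miR-122-5p, a hepatocyte miRNA, was at 17244 and 532452 RPMM in those liver libraries and at most at 128 RPMM in MIN6. Reads were not counted by molecular identifiers, so PCR copies are included and the 95% Wilson intervals given here cover counting error only.

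The level of the family differed with the protocol in both tissues, and most of the difference lay in its 5p arms. All reads on the 3 hairpins made up 0.184%, 0.156% and 0.174% of the mapped reads in TS-GAIIx and 0.794%, 0.760% and 0.714% in v1.5-GAIIx, but 30.5% in NF-HiSeq. In liver they made up 0.00151% in TS-HiSeq-ML and 0.0693% in NF-HiSeq-ML. The 6 Illumina MIN6 libraries all lay under 1%, and the NEXTflex library of the same cell line lay far above them.

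miR-7a-5p was at 1015, 782 and 915 RPMM in the TS-GAIIx libraries, at 4852, 4703 and 4436 RPMM in v1.5-GAIIx and at 248933 RPMM in NF-HiSeq. Among all 5′ ends it ranked between 103 and 113 in TS-GAIIx, between 35 and 37 in v1.5-GAIIx and 1 in NF-HiSeq, where copies of other miRNAs were not merged. miR-7b-5p was at 380, 338 and 366 RPMM in TS-GAIIx, at 1749, 1741 and 1683 RPMM in v1.5-GAIIx and at 52492 RPMM in NF-HiSeq, where it ranked 3. For both the Illumina groups did not overlap, with v1.5-GAIIx the higher of them, and NF-HiSeq was the highest of the 7.

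The 3p arms had another order. miR-7a-2-3p, the strongest of them, was at 295, 297 and 298 RPMM in TS-GAIIx, at 261, 264 and 271 RPMM in v1.5-GAIIx and at 143 RPMM in NF-HiSeq, so that the groups did not overlap and the order was opposite to that of the 5p arms. miR-7a-1-3p was at 45.2, 39.8 and 46.6 RPMM in TS-GAIIx, at 75.2, 79.2 and 74.3 RPMM in v1.5-GAIIx and at 71.2 RPMM in NF-HiSeq. miR-7b-3p was at 26.9, 31.0 and 35.1 RPMM in TS-GAIIx, at 22.8, 23.97 and 20.7 RPMM in v1.5-GAIIx and at 7.12 RPMM in NF-HiSeq. Among the 3p arms miR-7a-1-3p alone was higher in v1.5-GAIIx than in TS-GAIIx, with no overlap, and neither it nor miR-7b-3p entered the fit across 5′ ends, which needed 100 RPMM.

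**Figure D1:**
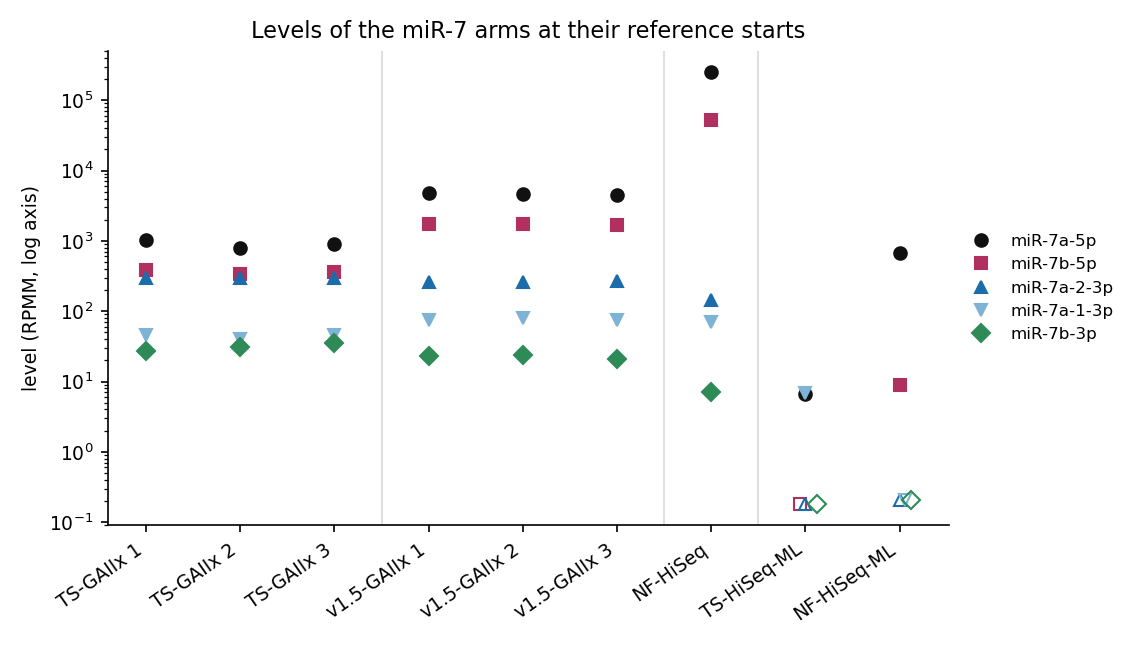
Level in RPMM (log axis) of the 5 arms at their reference starts in each of the 9 libraries, with filled symbols for measured levels and open symbols at the level of 3 reads for arms with fewer than 3 reads. The 5p arms of MIN6 rise from TS-GAIIx to v1.5-GAIIx to NF-HiSeq, while the 3p arms stay between 7.12 and 298 RPMM.

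The comparison of v1.5-GAIIx with TS-GAIIx asks how far 2 protocols on the same platform read the small RNAs of 1 cell line differently. miR-7a-5p was higher in v1.5-GAIIx by 2.37 on the log2 scale (SE 0.106, 5.16-fold, edgeR quasi-likelihood adjusted p = 4.53e-06, 3 against 3 libraries). In whole-number counts, that is without alignments of fractional count, the difference was 3.88 (edgeR adjusted p = 0.0377). These counts keep a read shared by both miR-7a copies only where its count is even, so they cannot test miR-7a-5p. miR-7b-5p was higher by 2.25 (SE 0.0549, 4.77-fold, edgeR adjusted p = 6.04e-07). Of the 11 family 5′ ends tested, 7 were higher in v1.5-GAIIx, 1 was lower and 3 did not pass, beside 87.6% of all 1093 5′ ends called in either direction (45.4% higher, 42.3% lower). Of the 7, starts +4, +5 and +6 of miR-7a-5p reached the limit of 100 RPMM only through v1.5-GAIIx, where they are high, so that their calls are no support. The other called 5′ ends were the reference starts of miR-7a-5p, miR-7b-5p and miR-7a-2-3p, which passed the limit in every MIN6 library, and start +1 of both 5p arms, which passed it only through NF-HiSeq. The libraries of the groups did not overlap for any of these 5, nor for 89.9% of all 5′ ends. A call was thus the rule in this comparison, and miR-7a-5p ranked 244 of 1093 by its fold change. The median log2 fold change of all 5′ ends was 0.17 with the mapped reads as library sizes and -0.13 with DESeq2 size factors, and the direction of every family call was the same with both.

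With 1 RPMM added, 13.6% of all 5′ ends were over 10-fold higher in v1.5-GAIIx and 11.6% over 10-fold lower, and the reference starts of the family were not among either.

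The called 5′ end that was lower was the reference start of miR-7a-2-3p, which fell by 0.16 on the log2 scale (SE 0.0469, 1.12-fold, edgeR adjusted p = 0.0200). This call was lost in reads without a mismatch (log2 fold change -0.03, adjusted p = 0.720), in reads of 20 to 25 nt (-0.02, adjusted p = 0.772), with no limit on RPMM (-0.16, adjusted p = 0.0559) and with the replicate number as a block (-0.16, adjusted p = 0.0720). It was also lost without TS-GAIIx replicate 1 (adjusted p = 0.0509), replicate 2 (0.0705) or replicate 3 (0.0700) and without v1.5-GAIIx replicate 2 (0.0643).

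The NEXTflex library has no replicate, so its ratios to the other MIN6 groups carry no test. With 1 RPMM added, miR-7a-5p was 275-fold higher in NF-HiSeq than in TS-GAIIx and 53.4-fold higher than in v1.5-GAIIx. miR-7b-5p was 145-fold and 30.4-fold higher. In whole-number counts, which keep reads shared by both miR-7a copies only where their count is even, the ratio of miR-7a-5p to TS-GAIIx was 1158. miR-7a-5p and miR-7b-5p were ranks 6 and 14 of 1093 by the ratio to TS-GAIIx, where 7.59% of 5′ ends were over 10-fold higher and 34.0% over 10-fold lower, and the median ratio of all 5′ ends was 0.304. Against v1.5-GAIIx 5.22% of 5′ ends were over 10-fold higher and 30.6% over 10-fold lower. miR-7a-2-3p had a ratio of 0.485 to TS-GAIIx and of 0.541 to v1.5-GAIIx, above the respective medians of 0.304 and 0.315.

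**Figure D2:**
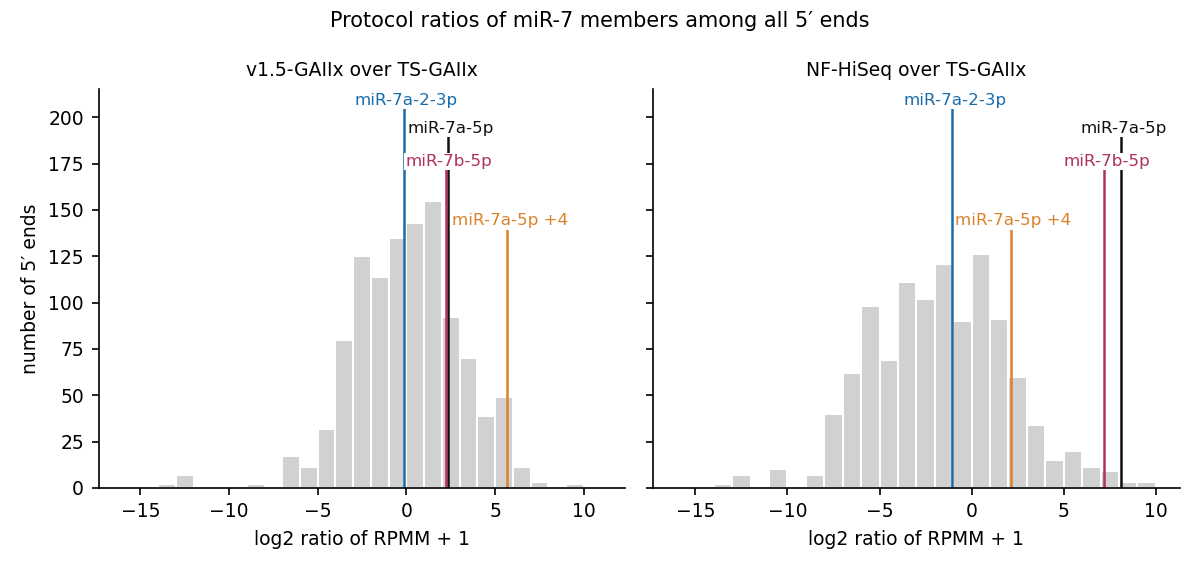
Histograms of the log2 ratio of RPMM + 1 over the 1093 5′ ends, for v1.5-GAIIx over TS-GAIIx (left) and NF-HiSeq over TS-GAIIx (right), with vertical lines at 4 family 5′ ends, whose heights only separate the labels. In the right plot miR-7a-5p (275-fold) and miR-7b-5p (145-fold) lie at the upper end, while miR-7a-2-3p (0.485) lies among the bulk.

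The ratio of NF-HiSeq to TS-GAIIx was large at each of the common read lengths. For miR-7a-5p reads of 22, 23, 24 and 25 nt it was 279, 312, 259 and 382, while reads of 20 nt gave 59.9. For miR-7b-5p the same 4 lengths gave 143, 189, 133 and 148. NF-HiSeq thus lay over 100-fold above TS-GAIIx at each of these 4 lengths in both miRNAs.

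The share of the arms differed with the protocol. Over all starts within 5 nt, the 5p arms made up 77.8%, 73.7% and 75.8% of the reads of both arms in TS-GAIIx, 94.99%, 94.7% and 94.3% in v1.5-GAIIx and 99.9% in NF-HiSeq. As a ratio, 5p reads were 3.14 ± 0.351 (SD, n = 3) times as many as 3p reads in TS-GAIIx and 17.8 ± 1.16 (SD, n = 3) times in v1.5-GAIIx (exact permutation test, two-sided p = 0.1, the smallest that 3 against 3 libraries allow). In NF-HiSeq the ratio was 1165. For Mir7b alone it was 11.7 ± 1.95 (SD, n = 3), 78.3 ± 4.15 (SD, n = 3) and 7443 in the same order.

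Within the 5p arm, miR-7b was the smaller part in every library. It made up 27.2%, 30.2% and 28.6% of miR-7a-5p plus miR-7b-5p in TS-GAIIx and 26.5%, 27.01% and 27.5% in v1.5-GAIIx, and these groups overlapped (exact permutation test, two-sided p = 0.2, n = 3 and 3). In NF-HiSeq it was 17.4%. The 2 RNAs differ by a single base, and the groups of Illumina libraries did not separate them, whereas NF-HiSeq had a lower share of miR-7b than any of the 6.

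A base 10 of the other miRNA was found in few reads. Reads on the miR-7a copies with U at base 10, the miR-7b base, made up 0.393%, 0.448% and 0.477% of miR-7a-5p in TS-GAIIx, 0.394%, 0.395% and 0.432% in v1.5-GAIIx and 0.343% in NF-HiSeq. A at base 10 was rarer in miR-7b-5p, with means of 0.0770% in TS-GAIIx and 0.0123% in v1.5-GAIIx. A miR-7b-5p read with an added U also fits Mir7-1 with a single mismatch, at base 10. Its count can be divided between Mir7b and Mir7-1, so the reads with U at base 10 can include it. Their origin was not tested, and their shares do not measure base changes in miR-7a-5p. Assigning every read by its base 10 instead of its position moved the miR-7b share in NF-HiSeq to 17.7%.

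The 3p arms told the hairpins apart. Mir7-2 gave 78.2%, 78.1% and 76.8% of all 3p reads in TS-GAIIx, 70.5%, 69.9% and 71.4% in v1.5-GAIIx and 55.8% in NF-HiSeq. Mir7-1 gave 15.04%, 14.3% and 14.7% in TS-GAIIx, 23.6%, 23.9% and 23.2% in v1.5-GAIIx and 41.4% in NF-HiSeq. By its 3p arm Mir7-2 was thus the leading source in all 7 MIN6 libraries, and its lead was smallest in NF-HiSeq.

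Reads of the 5p arm that ran past base 24 mostly matched Mir7-1. Reads of 25 nt or more without a mismatch made up 2.12%, 2.73% and 2.31% of miR-7a-5p in TS-GAIIx, 3.59%, 3.60% and 3.87% in v1.5-GAIIx and 4.67% in NF-HiSeq. Of these, 93.0%, 90.4% and 92.1% matched Mir7-1 in TS-GAIIx, 92.2%, 91.0% and 91.1% in v1.5-GAIIx and 93.4% in NF-HiSeq. The shares from Mir7-1 overlapped between the Illumina groups (exact permutation test, two-sided p = 0.7, n = 3 and 3).

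These reads cannot settle which copy was the source, because base 25 of Mir7-1 is U and a 24 nt read with an added U cannot be told apart from it. The Mir7b arm, which has C there, gives only a low measure of such reads. A miR-7b-5p read with U at base 25 also fits Mir7-1 with a single mismatch, at base 10. Its count can thus be divided between both hairpins, which lowers the shares given here. Reads of miR-7b-5p with U at base 25 and no other mismatch made up 0.931%, 0.929% and 1.17% in TS-GAIIx, 0.999%, 0.993% and 1.04% in v1.5-GAIIx and 1.54% in NF-HiSeq. Reads with the genomic C made up 0.119%, 0% and 0.0680% in TS-GAIIx, 0.0544%, 0.0626% and 0.103% in v1.5-GAIIx and 0.0697% in NF-HiSeq. In miR-7b-5p a base 25 other than the genomic one was therefore far more frequent than the genomic one in every MIN6 library. Reads of Mir7-2, whose base 25 is G, made up between 0.148% and 0.262% of miR-7a-5p in TS-GAIIx, between 0.280% and 0.345% in v1.5-GAIIx and 0.310% in NF-HiSeq.

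Most 5p reads ended after base 24, where 1 base was added to the span of alignments marked as exact, which end 1 base early in the deposited positions. The 24 nt form made up 70.1%, 69.8% and 70.4% of miR-7a-5p in TS-GAIIx, 65.9%, 65.7% and 65.4% in v1.5-GAIIx and 66.0% in NF-HiSeq. The 23 nt form, the RefSeq length of miR-7a-5p, made up 21.9%, 21.5% and 22.1% in TS-GAIIx, 27.1%, 27.2% and 27.3% in v1.5-GAIIx and 24.9% in NF-HiSeq. The Illumina groups did not overlap in either form (exact permutation test, two-sided p = 0.1 for each, n = 3 and 3). The mean 24 nt share was 70.1% in TS-GAIIx and 65.6% in v1.5-GAIIx. Whole-number counts gave 11.0% (SD 14.7) and 54.7% (SD 21.2). They keep a form shared by both miR-7a copies only where its count is even, so they cannot decide the direction.

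In miR-7b-5p the 24 nt form also led. This 24 nt form made up 74.2%, 74.6% and 73.8% in TS-GAIIx, 69.3%, 69.4% and 68.8% in v1.5-GAIIx and 68.2% in NF-HiSeq. The 22 nt form differed in opposite directions, with means of 2.16% in TS-GAIIx and 1.57% in v1.5-GAIIx for miR-7a-5p and of 1.62% and 2.05% for miR-7b-5p, and the groups did not overlap in either (exact permutation test, two-sided p = 0.1 for each, n = 3 and 3).

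**Figure D3:**
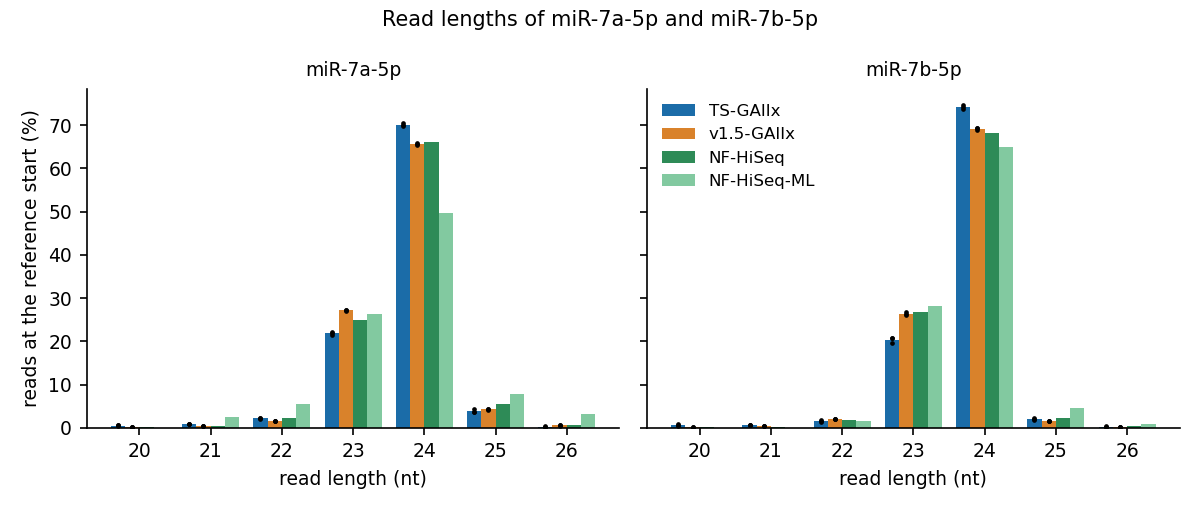
Share of reference-start reads (%) by read length for miR-7a-5p and miR-7b-5p, with bars for the group mean, dots for the single libraries of TS-GAIIx and v1.5-GAIIx, and no dots for the groups of 1 library. The 24 nt bar leads in all 4 groups shown, and the NF-HiSeq-ML bars of miR-7a-5p spread more widely, with 49.7% at 24 nt.

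Reads also began at other bases than the reference start. The shifted forms that mattered are printed here with their bases 2 to 8 in capitals, for the miR-7a copies.
start +1: gGAAGACUagugauuuuguuguu
start +4: aGACUAGUgauuuuguuguu
Starts +4 to +7 together made up 1.39%, 1.55% and 1.54% of the 5p reads of miR-7a in TS-GAIIx, 14.2%, 12.0% and 10.7% in v1.5-GAIIx and 0.0139% in NF-HiSeq. For miR-7b they made up 0.447%, 0.273% and 0.348% in TS-GAIIx, 4.40%, 3.64% and 2.93% in v1.5-GAIIx and 0.0110% in NF-HiSeq. The v1.5-GAIIx libraries were the high ones for both, a description with no test, since these starts were chosen with their levels known. In reads of 20 to 25 nt the means for miR-7a were lower, at 0.562% in TS-GAIIx and 5.54% in v1.5-GAIIx.

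The start at +4 was the strongest of them. It was at 6.10, 5.93 and 7.17 RPMM in TS-GAIIx, at 469, 367 and 312 RPMM in v1.5-GAIIx and at 31.0 RPMM in NF-HiSeq. Starts +4 to +6 reached 100 RPMM only through v1.5-GAIIx, so that their differences between the Illumina groups are given as a description, with no test. At start +4 the difference was 5.90 on the log2 scale (SE 0.211, 59.7-fold). The start at +5 was at 2.06, 1.65 and 1.66 RPMM in the TruSeq libraries and at 138, 109 and 87.9 RPMM in v1.5-GAIIx, which is a difference of 5.96 on the log2 scale (SE 0.257). The start at +6, chosen after its values were seen because it is over 5 nt away, gave a difference of 4.93 (SE 0.313). In miR-7b the start at +4 was at 0.489, 0.467 and 0.222 RPMM in TS-GAIIx, of which the last is under 3 reads, and at 38.1, 30.7 and 23.3 RPMM in v1.5-GAIIx. In both miRNAs the v1.5-GAIIx libraries were the high ones at starts +4 and +5, with no overlap.

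The reference start held 97.1%, 96.7% and 96.7% of the 5p reads of miR-7a in TS-GAIIx, 84.9%, 87.3% and 88.8% in v1.5-GAIIx and 98.8% in NF-HiSeq. Starts +1 and -1 were rare in every MIN6 library, and their shares too were highest in NF-HiSeq. Start +1 of miR-7a-5p was at 1.51, 1.36 and 1.49 RPMM in TS-GAIIx, at 5.05, 4.78 and 4.52 RPMM in v1.5-GAIIx and at 2022 RPMM in NF-HiSeq. Its ratio of NF-HiSeq to TS-GAIIx was 825. It reached 100 RPMM only through NF-HiSeq, as did starts -1 and +2 of miR-7a-5p and starts +1 and -1 of miR-7b-5p, so that their high ratios of NF-HiSeq to the other groups are no support. Between the Illumina groups it was higher in v1.5-GAIIx by 1.73 on the log2 scale (SE 0.166, edgeR adjusted p = 0.000129), a call that was lost in whole-number counts (1.86, adjusted p = 0.0979). Those counts keep a read shared by both miR-7a copies only where its count is even. As a share of the 5p reads, start +1 made up between 0.144% and 0.168% in TS-GAIIx, between 0.0884% and 0.0906% in v1.5-GAIIx and 0.802% in NF-HiSeq.

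Start -1 of miR-7a-5p was at 0.301, 1.17 and 0.581 RPMM in TS-GAIIx, at 0.873, 1.34 and 1.06 RPMM in v1.5-GAIIx and at 894 RPMM in NF-HiSeq, and the Illumina groups overlapped (log2 fold change 0.67, SE 0.477, edgeR adjusted p = 0.230). Without TS-GAIIx replicate 2 it was called (1.25, edgeR adjusted p = 0.0372), and in reads without a mismatch its direction turned (-2.87, edgeR adjusted p = 0.0905). In NF-HiSeq the extra first base of these reads was the genomic base in 52.5%, A in 29.3% and C in 18.2%. The genomic base there is G in Mir7-1 and U in Mir7-2, and these were pooled. Start +2 was at 8.38, 6.50 and 8.06 RPMM in TS-GAIIx, at 7.56, 6.28 and 6.35 RPMM in v1.5-GAIIx and at 122 RPMM in NF-HiSeq (v1.5-GAIIx against TS-GAIIx, log2 fold change -0.18, SE 0.213, edgeR adjusted p = 0.444). Start +1 of miR-7b-5p was higher in v1.5-GAIIx by 3.38 on the log2 scale (SE 0.419, edgeR adjusted p = 0.000445), although each TS-GAIIx library held fewer than 3 reads of it, so that the size of the difference is uncertain, and its start -1 gave 2.20 (SE 1.08, adjusted p = 0.102). The latter was called without TS-GAIIx replicate 1 (5.27, edgeR adjusted p = 0.00175), among named 5′ ends (2.28, adjusted p = 0.0339), in reads of 20 to 25 nt (2.18, adjusted p = 0.0409) and in whole-number counts (4.86, adjusted p = 0.00415). In NF-HiSeq starts +1 and -1 of miR-7b-5p were at 343 and 122 RPMM, against at most 1.98 and 0.530 RPMM in the 6 Illumina MIN6 libraries.

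**Figure D4:**
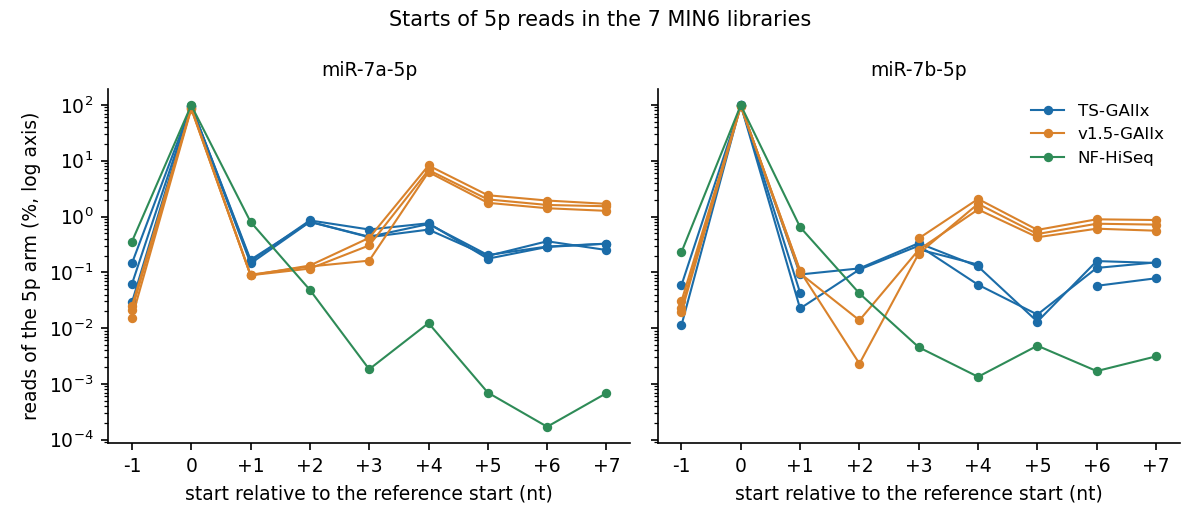
Share of 5p reads (%, log axis) by start relative to the reference start for miR-7a-5p and miR-7b-5p, with 1 line for each of the 7 MIN6 libraries and shares of 0 left out. The v1.5-GAIIx lines lie highest at starts +4 to +7 (12.0% on starts +4 to +7 for miR-7a-5p in replicate 2), and the NF-HiSeq line falls to 0.0139% there but is highest at starts -1 and +1.

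Last bases that are not in the genome also differed between protocols. A last base A in place of the genomic base was found in 1.39%, 1.64% and 1.13% of miR-7a-5p reads in TS-GAIIx, in 0.584%, 0.528% and 0.553% in v1.5-GAIIx and in 0.998% in NF-HiSeq. Among 25 nt reads, which have 1 base past the commonest end, this A was in 29.5%, 28.5% and 27.1% in TS-GAIIx, in 9.48%, 9.42% and 9.29% in v1.5-GAIIx and in 13.4% in NF-HiSeq. The Illumina groups did not overlap in either measure (exact permutation test, two-sided p = 0.1 for each, n = 3 and 3). The share of 25 nt reads itself, 3.65% to 4.39% in TS-GAIIx and 4.16% to 4.46% in v1.5-GAIIx, overlapped (exact permutation test, two-sided p = 0.3, n = 3 and 3).

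For miR-7b-5p, added A and added U can both be seen, since its base 25 is C, but not equally. A read with an added U also fits Mir7-1 with a single mismatch, at base 10, so its count can be divided. A read with an added A mismatches Mir7-1 at base 25 too. The shares of U are thus low and cannot be weighed against those of A. A last base U not in the genome made up 0.951%, 1.06% and 1.26% in TS-GAIIx, 1.12%, 0.984% and 1.06% in v1.5-GAIIx and 1.52% in NF-HiSeq, and the Illumina groups overlapped (exact permutation test, two-sided p = 0.9, n = 3 and 3). A last base A made up 0.951%, 1.23% and 0.997% in TS-GAIIx and 0.592%, 0.609% and 0.551% in v1.5-GAIIx, with no overlap (exact permutation test, two-sided p = 0.1, n = 3 and 3).

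In the 3p arms a last base U varied with arm and protocol. In miR-7a-2-3p a U not in the genome was the last base of 10.7%, 12.8% and 13.2% of reads in TS-GAIIx, of 5.03%, 5.14% and 4.93% in v1.5-GAIIx and of 0.983% in NF-HiSeq. In miR-7a-1-3p it was the last base of 14.3%, 20.6% and 17.1% in TS-GAIIx, of 9.49%, 8.25% and 9.33% in v1.5-GAIIx and of 11.0% in NF-HiSeq. Neither of these arms had overlapping Illumina groups (exact permutation test, two-sided p = 0.1 for each, n = 3 and 3). In miR-7b-3p it was the last base of 1.42% to 3.35% in TS-GAIIx and of 1.74% to 3.15% in v1.5-GAIIx, and these overlapped (exact permutation test, two-sided p = 0.6, n = 3 and 3). The 22 nt form of miR-7a-2-3p, its RefSeq length, made up 67.0%, 67.1% and 67.6% in TS-GAIIx, 86.0%, 84.9% and 85.1% in v1.5-GAIIx and 81.6% in NF-HiSeq.

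**Figure D5:**
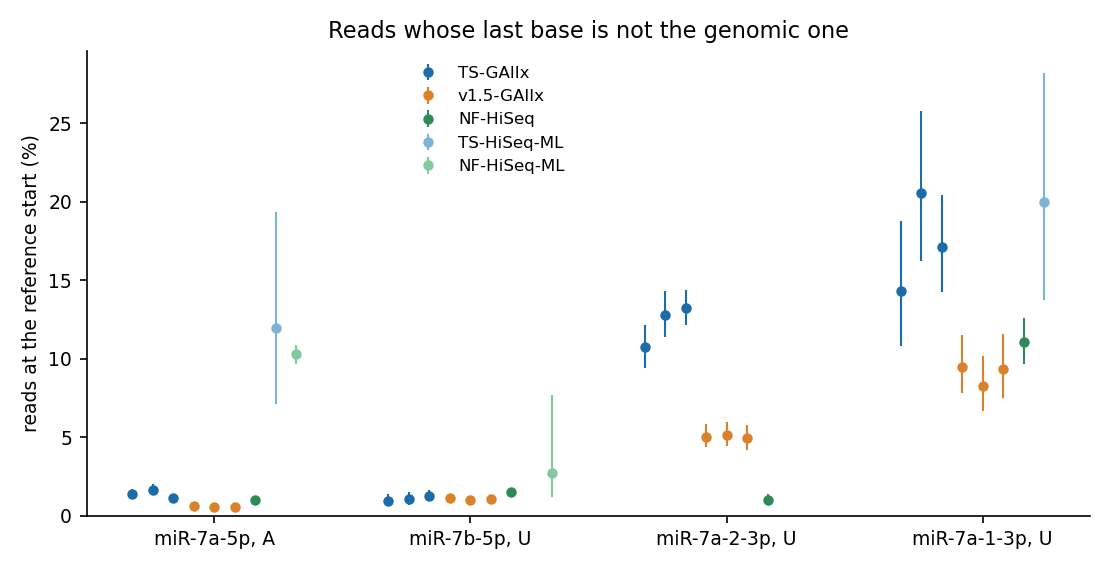
Share of reference-start reads (%) whose last base is not the genomic one, for A in miR-7a-5p and for U in miR-7b-5p and the 3p arms of miR-7a, with a point for each library that had at least 30 reads and its 95% Wilson interval. The v1.5-GAIIx points of miR-7a-2-3p (4.93% to 5.14%) lie below the TS-GAIIx points (10.7% to 13.2%), and the liver points of miR-7a-5p (11.9% and 10.3%) lie above all MIN6 points.

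The low count of miR-7b-3p in the NEXTflex library rested on few kinds of read. The 182 reads of miR-7b-3p in NF-HiSeq came in 7 combinations of length and mismatch, of which the commonest held 91.8%, whereas the 179 reads in TS-GAIIx replicate 1 came in 15, with 35.2% in the commonest. The other 3p arms were more varied in NF-HiSeq, with 22 combinations for miR-7a-1-3p (64.3% in the commonest) and 37 for miR-7a-2-3p (70.9%). In miR-7a-5p the commonest combination, the 24 nt read without a mismatch, held 64.6% of the reads in NF-HiSeq, which came in 1078 combinations, and 68.4% in TS-GAIIx replicate 1, which came in 82.

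Internal mismatches differed by library. The change A7C was in 1.17% and 2.91% of miR-7a-5p reads and in 1.27% and 2.55% of miR-7b-5p reads in TS-GAIIx replicates 1 and 2, but in 0.0907% of miR-7b-5p reads in replicate 3. A4C was in 0.530% of miR-7a-5p and 0.553% of miR-7b-5p reads in v1.5-GAIIx replicate 1 and was not among the 3 commonest changes in replicates 2 and 3. In NF-HiSeq A5G was in 0.186% and A7G in 0.152% of miR-7a-5p reads. A7C and A4C thus came in both miRNAs of the same libraries at like shares.

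In liver the family was sparse, and in TruSeq the shares of its arms differed from those of MIN6. miR-7a-5p was at 6.61 RPMM in TS-HiSeq-ML (109 reads) and at 678 RPMM in NF-HiSeq-ML, 89.2-fold higher with 1 RPMM added. Of the 743 liver 5′ ends 7.54% were over 10-fold higher in NF-HiSeq-ML and 38.4% over 10-fold lower, and nothing is read from where miR-7a-5p lies among them, since it reached 100 RPMM only through NF-HiSeq-ML. miR-7b-5p was at 0.0606 RPMM in TS-HiSeq-ML, which is 1 read and under the limit of 3, and at 8.95 RPMM in NF-HiSeq-ML, a ratio of 148 with no RPMM added (exact Poisson 95% interval of the 1 read, 26.5 to 5832) and of 9.39 with 1 RPMM added. miR-7b made up 1.30% of miR-7a-5p plus miR-7b-5p in NF-HiSeq-ML, against 17.4% in NF-HiSeq.

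All 3p reads in TS-HiSeq-ML came from Mir7-1. miR-7a-1-3p was at 6.97 RPMM there (115 reads), and miR-7 5p reads made up 45.8% of the reads of both arms, against 73.7% to 77.8% in the TS-GAIIx libraries of MIN6. miR-7a-2-3p and miR-7b-3p had 0 reads there, which allows up to 0.182 RPMM. In NF-HiSeq-ML the reference starts of all 3 arms had 0 reads, which allows up to 0.209 RPMM, and 1 read of the 3p arms of miR-7a lay at another start within 5 nt. At its reference start miR-7a-1-3p was thus at least 33.4-fold higher in TS-HiSeq-ML, opposite to miR-7a-5p in the same pair. Within NEXTflex the 5p arms held nearly all reads in both tissues, with 9974 reads against 1 of the 3p arms in NF-HiSeq-ML. Reads past base 24 without a mismatch made up 9.45% of miR-7a-5p in NF-HiSeq-ML, and 99.9% of them matched Mir7-1, with the same limit on base 25 as in MIN6.

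The ends of liver miR-7a-5p were more varied. The 24 nt form made up 49.7% in NF-HiSeq-ML and 46.8% in TS-HiSeq-ML (95% interval 37.7% to 56.1%). A last base A not in the genome made up 10.3% and 11.9% (95% interval 7.10% to 19.3%), against at most 1.64% in MIN6. In NF-HiSeq-ML 309 of these reads, 3.17% of miR-7a-5p, ended in the same AGA after base 24, a form with at most 2 reads in any other library. Of the 83 reads at start -1 in NF-HiSeq-ML, 98.8% had a first base A not in the genome.

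Between MIN6 and liver, fewer expressing cells and less RNA per cell cannot be told apart in these bulk libraries. Within NEXTflex, which used the same platform, miR-7a-5p was 367-fold and miR-7b-5p 5273-fold higher in MIN6 with 1 RPMM added, where 32.8% of 515 5′ ends were over 10-fold higher and 17.3% over 10-fold lower in MIN6. Of the family's reference starts only miR-7a-5p reached 100 RPMM in a liver library, NF-HiSeq-ML, so that the ratios of the others, and that of miR-7a-5p within TruSeq, are a description of members that passed through the tissue where they are high. miR-7a-2-3p was at least 687-fold higher at the limit of 3 reads. Within TruSeq, where the platform differed too, the ratio of miR-7a-5p was 119 beside 34.2% of 1113 5′ ends over 10-fold higher and 33.5% lower, and that of miR-7b-5p, which rests on 1 liver read, was 342 with 1 RPMM added and 5958 with none (exact Poisson 95% interval 1069 to 235330). There miR-7a-2-3p was at least 1630-fold higher at the limit of 3 reads. For comparison within NEXTflex, the liver level was 0.272% of the MIN6 level for miR-7a-5p, 0.0171% for miR-7b-5p, 0.0411% for miR-375-3p and 0.427% for miR-182-5p. The MIN6 level of miR-122-5p was 0.0240% of its liver level. Whether reads passed between these libraries was not tested.

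The ratios of the 5p arms may be read beside those of other miRNAs of islet cells. Of 22 islet miRNAs listed by name, 21 were placed on a 5′ end, and 15 of them were higher and 5 lower in v1.5-GAIIx than in TS-GAIIx by edgeR, beside the 45.4% and 42.3% of all 5′ ends. In NF-HiSeq against TS-GAIIx 1 of the 21, miR-34a-5p, was over 10-fold higher (ratio 10.1) and 1, miR-183-5p, over 10-fold lower (ratio 0.0284), beside 7.59% and 34.0% of all 5′ ends, and both were named after their values were seen. The median ratio of the 21 was 0.711 against 0.304 over all 5′ ends. By the mean over all MIN6 libraries, the strongest 3 were miR-375-3p (ratio 0.372), miR-141-3p (0.148) and miR-182-5p (0.639), but the order differed between protocols. In TS-GAIIx miR-26a-5p (mean 34954 RPMM) lay above miR-182-5p (28998 RPMM), and in v1.5-GAIIx miR-24-3p (29034 RPMM) and miR-200c-3p (25764 RPMM) did (miR-182-5p 12398 RPMM). In NF-HiSeq miR-141-3p was at 2247 RPMM, below miR-30d-5p (12098 RPMM), miR-26a-5p (11168 RPMM) and miR-200c-3p (9660 RPMM), among others. miR-375-3p had 64950 RPMM in NF-HiSeq, below miR-7a-5p and above miR-7b-5p.

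The named miRNAs whose log2(RPMM + 1) over the 7 MIN6 libraries was most like that of miR-7a-5p were miR-3099-3p (Pearson r = 0.995), let-7f-1-5p with start -1 (0.995), let-7b-5p with start +1 (0.994), miR-669b-5p (0.993) and miR-669m-5p with start -5 (0.993). These 7 points fall into 3 protocol groups and share library and depth, so r describes the order of the groups. All 5 rose from TS-GAIIx to v1.5-GAIIx to NF-HiSeq in their means, but with smaller ratios of NF-HiSeq to TS-GAIIx than miR-7a-5p, from 2.03 for miR-3099-3p to 173 for let-7b-5p with start +1.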

How the data were processed

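Small RNAs of MIN6 cells (7 libraries) and of 1 mouse liver (2 libraries) were sequenced. The authors removed adapters from Illumina reads with cutadapt and the first 4 and last 4 nt from NEXTflex reads, aligned reads to mm9 with Bowtie (versions not given in the sources used here) and deposited, per alignment, an expected count, a read that fits several positions being divided among them. These counts summed to 0.264% to 8.41% more than the mapped reads the study gives, which were used as library sizes.

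Alignments marked as exact span 1 base less than those with an edit string, and 1 base was added to their end. Edit strings of numbers alone, 1.30% to 6.40% of counts, had no base added. Counts were summed by 5′ end, copies of miR-7a were merged, and levels were given as RPMM (count divided by mapped reads, times 1e+06). Columns of samples left unused numbered 0. v1.5-GAIIx and TS-GAIIx, which the study calls biological replicates and whose labels name no cultures, were compared with the edgeR 4.0.16 quasi-likelihood test on rounded counts of 1093 5′ ends, with Benjamini-Hochberg adjustment at 0.05, and by exact permutation tests of shares. p-values then measure only the spread between these samples. Replicates differed by more than sampling noise. Ratios used mean RPMM + 1. DESeq2 1.42.0, other library sizes, filters, constants, read sets and left-out replicates were alternatives. R 4.3.3, Python 3.11.15 and SciPy 1.17.1 were used.

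Named were family 5′ ends within 5 nt of an arm's start with at least 10 RPMM in a library, 22 islet miRNAs as counts with the strongest 3 named, and the 5 miRNAs most like miR-7a-5p. Other miRNAs were named where their RPMM equalled an entry of the study's lists. The members and lists were chosen with earlier results of these data known. Depth limits levels under 3 reads.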

Additional observations from a re-analysis of the deposited data

Results flagged for a closer look

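miR-7a-1-3p, the 3p arm of Mir7-1, went in opposite directions between NEXTflex and TruSeq in the 2 tissues. In MIN6 it was 1.61-fold higher in NF-HiSeq than in the mean of TS-GAIIx, above all 3 of its libraries. In liver it was at least 33.4-fold higher in TS-HiSeq-ML than in NF-HiSeq-ML, which had 0 reads, at the limit of 3 reads. Its start +1 showed the same, with NF-HiSeq 1.56-fold above TS-GAIIx in MIN6 and TS-HiSeq-ML at least 4.94-fold above NF-HiSeq-ML in liver. The difference between the tissues was not tested, since 3 of the 4 groups hold 1 library, and in MIN6 the protocol cannot be told apart from the platform.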

How the results depend on the processing

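Of 463 recomputed values, 228 of those that answer a comparison and 162 of those for single 5′ ends kept their direction and side of the threshold or stayed within the spread. The difference at start -1 of miR-7a-5p (log2 0.67, not called) turned to -2.87 in reads without a mismatch, not called either. Assignment by base 10, added after seeing the data, left the difference in miR-7b share at -1.67 percentage points. In v1.5-GAIIx against TS-GAIIx, the number of 5′ ends called (958 of 1093) was 440 of 472 with a commonest length of 20 to 24 nt, 600 of 668 without mismatched reads, 5055 of 6587 and 239 of 261 at limits of 10 and 500 RPMM, 27983 of 54045 with no limit, 325 of 352 among named 5′ ends, 450 of 486 in reads of 20 to 25 nt and 431 of 672 in whole-number counts. As shares of the 5′ ends tested these were 93.2%, 89.8%, 76.7%, 91.6%, 51.8%, 92.3%, 92.6% and 64.1%, against 87.6%. The share of calls that were higher was 65.7%, 65.8% and 63.0% for the commonest length, 20 to 25 nt and no limit, against 51.8%. It was lower, at 48.2% and 48.1%, with DESeq2 size factors and with the DESeq2 Wald test. Family calls (8 of 11 tested) were 17 of 24, 3 of 4 and 23 of 34 at 10, 500 and no limit and 5 of 5 with starts summed into arms, beside 76.7%, 91.6%, 51.8% and 88.0% of all features called, and 5′ ends that passed the limit only where they are high are among them. Leaving out each replicate gave 918 to 944 calls, of which 7 or 8 in the family, and the DESeq2 Wald test gave 938.

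Whole-number counts keep a read shared by both miR-7a copies only where its count is even. There the log2 fold change of miR-7a-5p, v1.5-GAIIx over TS-GAIIx, was 3.88 (2.37 in all reads), its ratio was 1158 (NF-HiSeq over TS-GAIIx), 78.8 (over v1.5-GAIIx), 533 (over NF-HiSeq-ML) and 38.3 (TS-GAIIx over TS-HiSeq-ML), and the v1.5-GAIIx minus TS-GAIIx difference in share, in percentage points, was 33.8 for the 5p arm, -20.0 for miR-7b, 19.8 for starts +4 to +7, -4.43 for 3′ mismatches, 2.76 for copy-specific reads and 43.7 for 24 nt reads, the last of opposite sign. Reads without a mismatch gave 16.5 for the 5p arm, -5.06 for 24 nt reads, and ratios of miR-7a-5p of 404 (NEXTflex) and 137 (TruSeq) between MIN6 and liver. Reads of 20 to 25 nt gave 16.7 for the 5p arm, 4.98 for starts +4 to +7 and 396 for MIN6 over liver in NEXTflex. Over v1.5-GAIIx, miR-7a-5p in NF-HiSeq was 48.6-fold with starts summed, and miR-7b-5p 31.6-fold with summed counts as library size. Constants of 0.1 and 5 RPMM moved low liver values: NF-HiSeq-ML over TS-HiSeq-ML to 58.8 (miR-7a-5p, 5) and 56.4 and 2.76 (miR-7b-5p), NF-HiSeq over NF-HiSeq-ML to 3762 (miR-7b-5p, 5), and TS-GAIIx over TS-HiSeq-ML to 135 and 78.3 (miR-7a-5p) and 2250 and 72.4 (miR-7b-5p).

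5′ ends over 10-fold higher numbered, at a limit of 500 RPMM and in reads of 20 to 25 nt, 18 and 43 (NF-HiSeq over TS-GAIIx), 17 and 32 (over v1.5-GAIIx), 6 and 15 (liver NEXTflex over TruSeq) and 76 and 139 (TS-GAIIx over TS-HiSeq-ML, where reads without a mismatch gave 228 and whole-number counts 249), and 55 at 500 RPMM for NF-HiSeq over NF-HiSeq-ML. The number of 5′ ends past the limit changes with these settings too, so these counts are not shares. Causes of the other shifts were not tested.

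The labels do not say whether equal replicate numbers pair the samples. Correlations of same-numbered deviations were 0.223, -0.0764 and 0.00652, within the -0.314 to 0.272 of other pairs, and cannot settle it. With the replicate number as a block, 951 5′ ends were called, 7 of them in the family, and miR-7a-2-3p (log2 fold change -0.16) had an edgeR adjusted p of 0.0720.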
